A study of Mus musculus with 12 samples.

Results

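Mitochondrial ribosomal proteins are nuclear-encoded proteins that build the ribosome inside mitochondria. Their messenger RNAs were followed in 12 adult mouse hearts as the rows of the deposited count table whose symbol begins with Mrpl or Mrps and a digit, with pseudogene symbols ending in -ps left out. The rule took 76 of 23457 rows, 47 named Mrpl and 29 named Mrps, and used no measured value. No pseudogene symbol had to be removed. All 76 held reads in every library (36 to 5918 reads per gene and library), so all 76 passed the low-count filter and entered the test of 13050 genes.

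The hearts came from mice of the C57BL/6J background, 6 noninduced (floxed, without Cre) and 6 Parkin KO (floxed, carrying MERCreMer and induced). Both groups are labelled adult and 9 to 10 weeks after tamoxifen, and both carry the floxed allele. The name noninduced and this time label together do not settle whether the noninduced mice received tamoxifen. Parkin attaches ubiquitin to the surface of damaged mitochondria, which tags them for mitophagy, and MERCreMer is a Cre recombinase that enters the nucleus when tamoxifen binds it. The promoter that drives MERCreMer is not named in the labels, and no group with MERCreMer but without the floxed allele was analysed here, so loss of Parkin and presence of MERCreMer cannot be told apart. Polyadenylated RNA was sequenced from the ventricular apex per the extraction protocol, although the tissue label reads whole heart. The labels number the hearts but do not say that each came from its own mouse, and p-values measure the spread between these libraries only.

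The mitochondrial ribosome translates the messages encoded by mitochondrial DNA, all of which specify subunits of the respiratory chain or of the ATP synthase. Its proteins are made in the cytosol and imported, whereas its ribosomal RNAs are transcribed inside the organelle, so 2 genomes must supply 1 particle. The heart depends on oxidative phosphorylation, and variants in the human counterparts of Mrpl3, Mrpl44, Mrps14 and Mrps22 cause cardiomyopathy. In the assembled particle the small subunit reads the message, the large subunit joins the amino acids, and each holds both proteins with a bacterial counterpart and proteins found only in mitochondria.

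The promoters of 6 members are printed because motif matches near the start site are a shared feature that the selection did not use. RefSeq windows on GRCm38.p6 were at hand for 67 of the 76 members. Each printed stretch runs from 130 bases before to 30 bases after the RefSeq start, 5′ to 3′ on the strand of the gene, with matches to any of 3 motifs in capitals. Where RefSeq gave several windows for a gene, as for 3 members, the first listed was used. For Mrps7 and Mrpl40 the GENCODE annotation starts the gene farther upstream, and the whole printed stretch lies inside the GENCODE gene. The motifs, searched on both strands, were CCGGAAG for ETS factors such as GABP and AAGATGGC for YY1, and the palindromic consensus of NRF1, factors known to act on nuclear genes of mitochondria. Mrps27, Mrps7, Mrps26 and Mrps12 show matches, and each is among the members higher in Parkin KO hearts at an unadjusted p under 0.05. Mrpl2, the member of lowest p-value, has no match to the 3 motifs in its window and is not printed. The printed set is thus not a random sample of the members. Mrps9 and Mrpl40 have none in the printed stretch, and are shown because the first separated the groups of hearts and the second had the lowest p-value among members with lower values in Parkin KO hearts. The stretches lie at chr13:99344656-99344815 on the plus strand (Mrps27), chr11:115604010-115604169 on the plus strand (Mrps7), chr2:130563627-130563786 on the plus strand (Mrps26), chr7:28741792-28741951 on the minus strand (Mrps12), chr1:42851103-42851262 on the plus strand (Mrps9) and chr16:18876608-18876767 on the minus strand (Mrpl40).
Mrps27: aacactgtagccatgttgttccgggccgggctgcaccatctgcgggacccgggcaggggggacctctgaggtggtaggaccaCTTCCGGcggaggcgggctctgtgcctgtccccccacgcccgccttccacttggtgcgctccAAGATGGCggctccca
Mrps7: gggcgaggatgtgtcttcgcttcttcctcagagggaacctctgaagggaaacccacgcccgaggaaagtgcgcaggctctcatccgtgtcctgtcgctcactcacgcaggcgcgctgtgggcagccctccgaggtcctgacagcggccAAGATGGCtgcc
Mrps26: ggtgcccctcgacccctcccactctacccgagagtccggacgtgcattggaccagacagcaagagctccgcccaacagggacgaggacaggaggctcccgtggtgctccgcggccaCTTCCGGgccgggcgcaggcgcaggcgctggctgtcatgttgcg
Mrps12: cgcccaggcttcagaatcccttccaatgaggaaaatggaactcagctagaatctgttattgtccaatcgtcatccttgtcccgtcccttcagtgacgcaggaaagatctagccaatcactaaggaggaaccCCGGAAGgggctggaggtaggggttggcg
Mrps9: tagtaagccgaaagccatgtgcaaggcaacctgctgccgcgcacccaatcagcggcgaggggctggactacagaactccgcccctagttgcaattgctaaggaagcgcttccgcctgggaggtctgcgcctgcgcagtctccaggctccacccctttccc
Mrpl40: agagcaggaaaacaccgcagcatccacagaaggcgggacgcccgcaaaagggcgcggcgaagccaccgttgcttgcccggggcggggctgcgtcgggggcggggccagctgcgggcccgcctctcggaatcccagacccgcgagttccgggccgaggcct

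Over windows of 300 bases (250 before and 50 after the start), the ETS motif was present in 23 of 67 members (34.3%) and in 9.12% of the 27025 genes with a window. The YY1 motif was present in 12 members (17.9%) against 2.88% of all genes. The NRF1 motif was present in 3 members (Mrpl9, Mrpl32 and Mrpl39, 4.48%) against 0.977%. At least 1 of the 3 was found in 34 members, or 50.7%, against 12.3% of all genes. The 27025 genes were not limited to the 13050 tested in these hearts, and no background matched to the members in expression or GC content was used. A match is a run of letters and not a site shown to be bound.

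Of 27 ETS matches in members, 24 began within 100 bases of the start and 8 began after it. Examples are the match of Mrps26 at 14 bases before it and that of Mrps12 at 1 base after it. Of 12 YY1 matches, 9 began within 100 bases of the start and 8 after it, among them those of Mrps7 at 18 bases and Mrps27 at 14 bases. Mrps27, Mrps12 and Mrps18a held both motifs, and no ETS match in a member overlapped a YY1 match. The members' windows had a median GC content of 58% against 52.7% for all genes. The GC box GGGCGG was found in 49.3% of members and 35.9% of all windows, the E box CACGTG in 7.46% and 7.24%, and the TATA motif TATAAA in 5.97% and 14.2%.

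**Figure D1:**
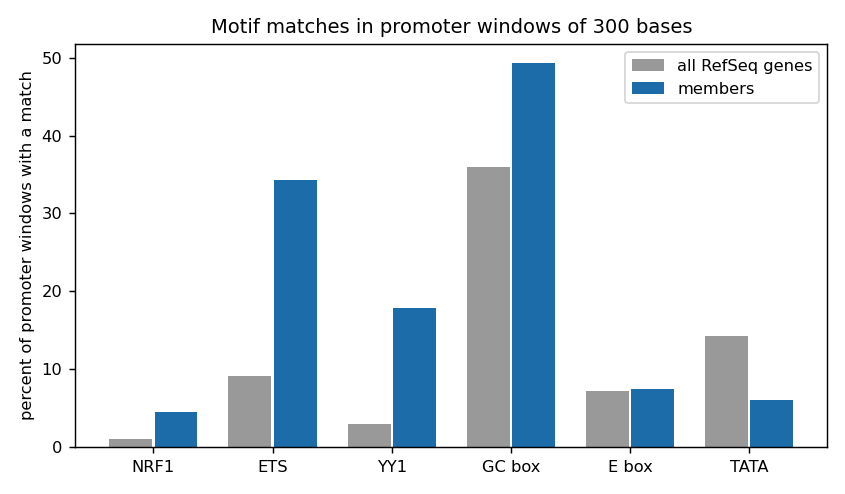
Percent of promoter windows of 300 bases that hold a match to each of 6 motifs on either strand, for all RefSeq genes (27025 windows, grey) and for members (67 windows, blue). The members' bars are above those of all genes for ETS (34.3% against 9.12%) and YY1 (17.9% against 2.88%), and below for TATA.

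Levels are given as the authors' FPKM, which are scaled by transcript length and so allow genes to be set side by side. The median member had a mean level of 37.2 FPKM over the 12 hearts, against 5.99 FPKM for all tested genes. Members ranged from 2.01 FPKM (Mrpl1) to 622 FPKM (Mrpl42), a 309-fold range among proteins that are found in the particle together. There were 15 members over 100 FPKM and 9 under 10 FPKM.

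The highest were Mrpl42, a large-subunit protein found only in mitochondria, at 622 ± 145 FPKM (SD, n = 12), and Mrps21, a small-subunit protein with a bacterial counterpart, at 427 ± 42.7 FPKM (SD, n = 12). Mrpl12, the stalk protein that meets the translation factors, followed at 269 ± 23.5 FPKM (SD, n = 12). Mrps36 was at 205 ± 35.9 FPKM (SD, n = 12); despite its symbol it is now known as a subunit of the 2-oxoglutarate dehydrogenase complex. Mrpl52, again a protein found only in mitochondria, was at 183 ± 37.4 FPKM (SD, n = 12). Ranges over hearts overlapped between neighbours in this order except between Mrpl12 and Mrps21: the hearts spanned 468 to 967 FPKM for Mrpl42, 376 to 517 for Mrps21, 239 to 315 for Mrpl12, 155 to 261 for Mrps36 and 120 to 249 for Mrpl52.

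At the low end stood Mrpl1 at 2.01 ± 0.696 FPKM, Mrpl19 at 4.10 ± 0.578, Mrps25 at 4.79 ± 1.10, Mrpl35 at 5.72 ± 0.710 and Mrpl17 at 5.93 ± 1.02 FPKM (SD, n = 12 each). Mrpl1, Mrpl19, Mrpl35 and Mrpl17 have bacterial counterparts in the large subunit, and Mrps25 is a small-subunit protein found only in mitochondria. These low values depend on the length the authors' method assigned to each gene. When the counts were divided by exon length instead, the order of members was similar (Spearman's rho 0.890 across the 76 genes, which share libraries), but 20 members moved by more than 2-fold. Exons of Nr2c2 on the opposite strand cover 69.8% of the exon bases of Mrps25, and those of Gcfc2 cover 36% of Mrpl19, and without strand such reads cannot be told apart.

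The paralogs Mrps18a, Mrps18b and Mrps18c descend from 1 bacterial small-subunit protein. In the subunit counts, Mrps18c is placed with the proteins that have a bacterial counterpart. Mrps18a and Mrps18b are placed with those found only in mitochondria, although they share this origin. Mrps18a, which now sits in the large subunit, was at 81.5 ± 8.92 FPKM (SD, n = 12), Mrps18b at 38.6 ± 5.27 and Mrps18c at 21.1 ± 6.43. The hearts spanned 66.3 to 93.6 FPKM for Mrps18a, 32.7 to 51.6 for Mrps18b and 11.6 to 31.1 for Mrps18c, so that no heart of 1 paralog reached the range of another. Exons of other genes cover 30.5% of Mrps18b and 23.2% of Mrps18c.

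**Figure D2:**
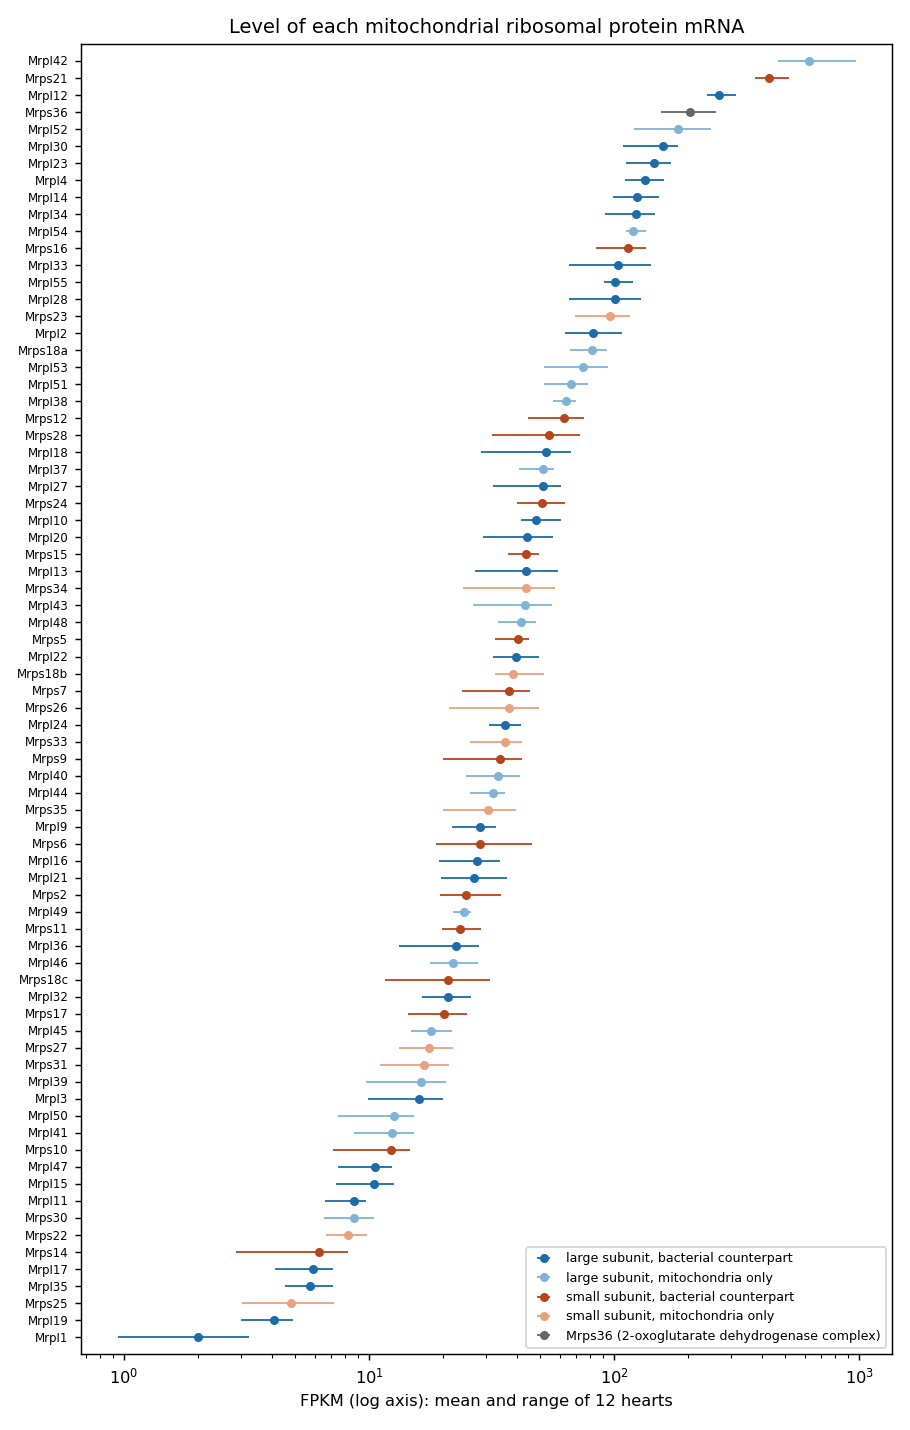
Mean FPKM of each of 76 members on a log axis, with lines from the lowest to the highest of 12 hearts, coloured by subunit and by whether a bacterial counterpart exists. Mrpl42 (622 FPKM) and Mrps21 (427 FPKM) stand at the top and Mrpl1 (2.01 FPKM) at the bottom.

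Several properties of the libraries preceded the comparison. Total counts ran from 11610507 to 16884516 per library. Esr1, on which reads of the MERCreMer receptor domain can fall, was at 1553 to 4683 CPM (reads scaled to library size with TMM factors) in Parkin KO hearts and at 24.0 to 64.9 CPM in 4 noninduced hearts, but at 558 and 962 CPM in the libraries labelled noninduced 1 and 3. These 2 values go against a label without Cre, and the comparison was also made without both libraries. Y-linked reads (over 50) were present in Parkin KO hearts 2, 5 and 6 and in noninduced heart 3, which also held Xist reads at 77.2 CPM. Mitochondrial DNA-encoded genes took 16.0% and 16.7% of the counts of noninduced hearts 1 and 2, 10.5% of noninduced heart 3 and 5.17% to 9.53% of every other library. The 8 cardiomyocyte markers summed to 61657 to 90515 CPM in noninduced and 79723 to 97417 CPM in Parkin KO hearts, and 7 of the 8 were higher in Parkin KO hearts (median log2 fold change 0.12). The 6 atrial markers summed to 121 to 5987 CPM and 158 to 1547 CPM, all 6 lower in Parkin KO hearts (median log2 fold change -4.25). Their sums were highest in noninduced hearts 2, 5 and 6, at 3330, 5987 and 4083 CPM. Fibroblast markers had a median log2 fold change of -0.21 (5 of 7 lower), smooth muscle and pericyte markers -0.36 (5 of 6), macrophage markers -0.18 (5 of 7), endothelial markers -0.02 (4 of 6), mesothelial markers -0.54 (4 of 4), and the tested lymphocyte and nerve markers -0.36 and -0.32 (3 of 3 each). The 1 tested red blood cell marker was at 0.12, and 4 of the 5 adipocyte markers were at 0 in some libraries. The part of these differences in those of the ribosomal proteins was not tested. In bulk tissue, fewer cells of a type and less RNA per cell cannot be told apart.

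No member passed the test between Parkin KO and noninduced hearts, which asked how far adult loss of Parkin alters messenger RNA in the heart. With edgeR's quasi-likelihood test and Benjamini-Hochberg adjustment over 13050 genes, 0 of 76 members and 0% of all genes had an adjusted p under 0.05, and the smallest adjusted p of a member was 0.417. DESeq2 likewise called 0 members, and 10 of all genes. The direction was uneven. At an unadjusted p under 0.05 there were 22 members (28.9%), all 22 higher in Parkin KO hearts, beside 11.4% of all genes in both directions together, 5.82% higher and 5.54% lower. The log2 fold change was above 0 in 53 members and below 0 in 23, where 52% of all genes were above 0. Its median was 0.10 over the members and 0.01 over all tested genes, and single members ran from -0.29 (Mrps2) to 0.44 (Mrps26).

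The count of 22 changed when single libraries were left out. It was 23 without noninduced heart 4, beside 16.3% of all genes, and 23 without noninduced heart 5, beside 12.4%. In the 4 fits given next, the count fell, and the share of all tested genes at an unadjusted p under 0.05 fell with it. The count was 12 members (15.8%) without noninduced heart 1, beside 7.40% of all genes, and 11 (14.5%) without noninduced heart 2, beside 7.10%. Without Parkin KO heart 5 it was 13 (17.1%), beside 10.2% of all genes, and without Parkin KO heart 6 it was 12 (15.8%), beside 7.20%. In these 4 fits all such members were higher in Parkin KO hearts. Without noninduced hearts 1 and 2 together it was 8 (10.5%), beside 4.77% of all genes, and the median was 0.06. Among the 8 libraries without Y-linked reads it was 8 (10.5%), beside 4.71%, with a median of 0.09. Without noninduced hearts 1 and 3 it was 11 (14.5%), beside 7.49%, with a median of 0.11.

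Intervals of the members were narrower than those of the median gene. The median half-width of the 95% confidence interval was 0.22 on the log2 scale for members and 0.29 for all tested genes. For all 76 the interval lay within a 2-fold change either way, as it did for 12180 of the 13050 tested genes. The SD of log2 CPM over the 12 hearts had a median of 0.19 for members and 0.25 for all genes. Mrps14 (0.44), Mrpl1 (0.40) and Mrps18c (0.39) varied most among hearts, and Mrpl49 (0.091), Mrpl44 (0.10) and Mrpl24 (0.11) varied least.

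**Figure D3:**
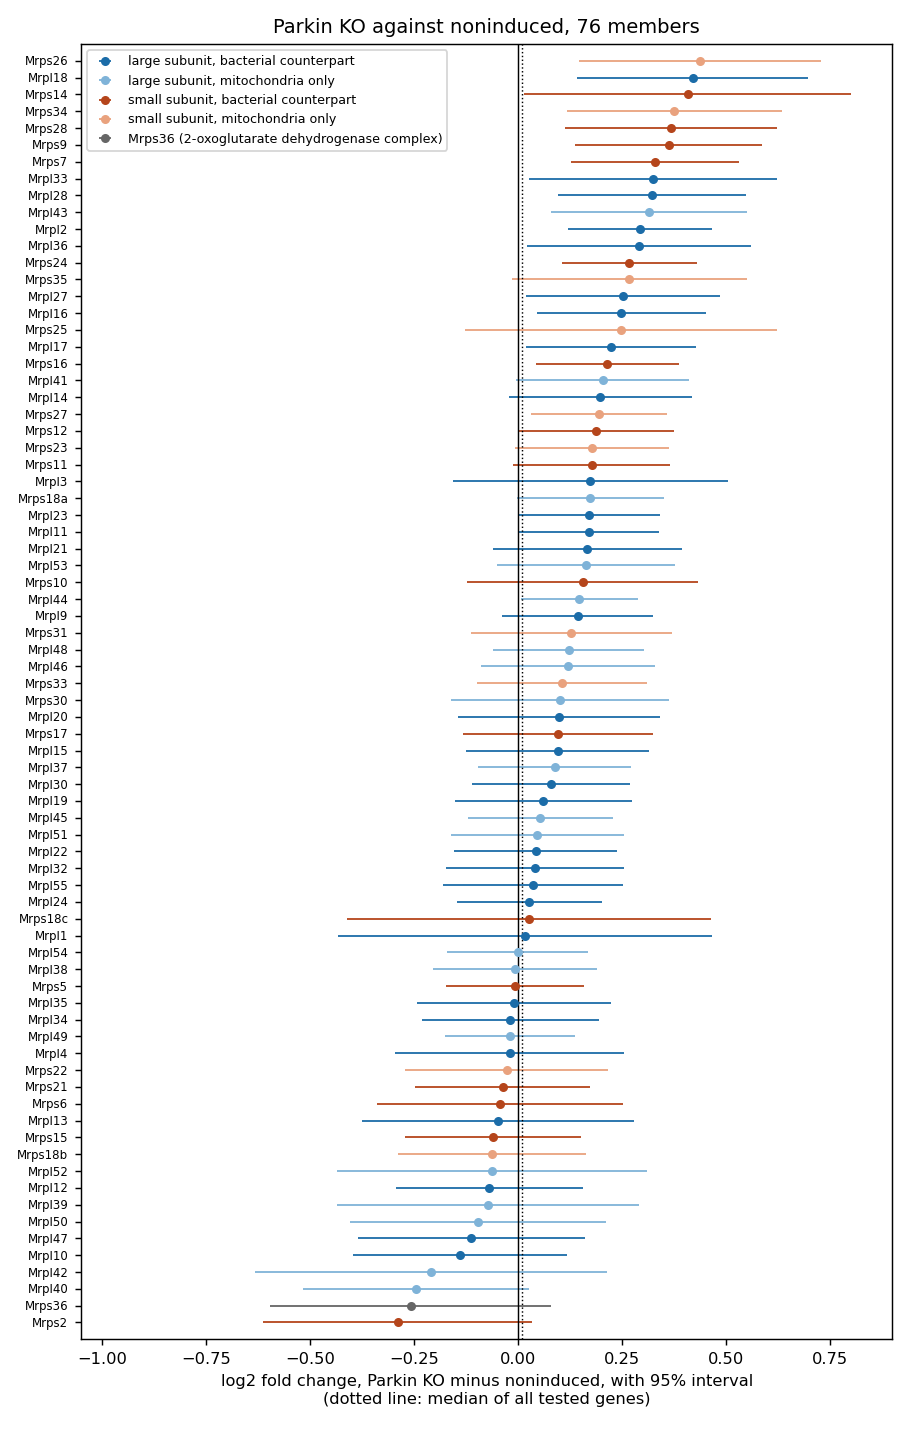
Log2 fold change of each of 76 members in Parkin KO against noninduced hearts (n = 6 each) with its 95% interval, from Mrps26 (0.44) at the top to Mrps2 (-0.29) at the bottom. The dotted line is the median of all tested genes (0.01), and 53 of the 76 points lie above 0.

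In the small subunit, 19 of 26 members (73.1%) were higher in Parkin KO hearts, beside 52% of all tested genes. The median log2 fold change of the 26 was 0.18. An unadjusted p under 0.05 was reached by 10 (38.5%), beside 11.4% of all tested genes. Of the 26, 16 have a bacterial counterpart (11 higher, median 0.17, 7 with p under 0.05) and 10 are found only in mitochondria (8 higher, median 0.19, 3 with p under 0.05). Mrps9 and Mrps27 were the 2 members whose groups of hearts did not overlap, both with Parkin KO above (0.23% of all tested genes separated in that direction).

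Mrps9 is the counterpart of the bacterial protein whose tail reaches the tRNA in the peptidyl site, and its gene lies at chr1:42851233-42905683 on the plus strand (GRCm38). Its level was 33.5, 27.9, 40.5, 40.3, 42.2 and 41.2 CPM in noninduced hearts 1 to 6, and 43.4, 42.8, 53.0, 47.9, 52.0 and 51.5 CPM in Parkin KO hearts 1 to 6. All Parkin KO hearts lay above all noninduced hearts, but the closest values, 42.2 and 42.8 CPM, nearly met, and noninduced hearts 1 and 2 lay apart at the low end. The log2 fold change was 0.36 (SE 0.105, edgeR's Benjamini-Hochberg adjusted p = 0.417), and it was 0.23 without noninduced hearts 1 and 2.

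Mrps27, a pentatricopeptide repeat protein of the small subunit found only in mitochondria, lies at chr13:99344786-99415562 on the plus strand. Noninduced hearts 1 to 6 were at 24.0, 24.8, 26.9, 26.6, 25.8 and 25.2 CPM, and Parkin KO hearts 1 to 6 at 28.1, 28.2, 27.9, 27.8, 34.6 and 29.1 CPM. The groups were close and narrow, and Parkin KO heart 5 stood above the rest. Its fitted log2 difference was 0.20 (SE 0.0768, edgeR's Benjamini-Hochberg adjusted p = 0.424). A noncoding gene on the opposite strand covers 24.2% of its exon bases.

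Mrps7, whose bacterial counterpart starts assembly of the head of the small subunit, was at 30.8 to 45.9 CPM in noninduced hearts (median 39.3) and at 43.8 to 51.9 CPM in Parkin KO hearts (median 49.5). All 6 Parkin KO hearts exceeded the noninduced mean, and 4 exceeded the highest noninduced heart. The log2 fold change was 0.33 (SE 0.0944, edgeR's Benjamini-Hochberg adjusted p = 0.417). Exons of Gga3 and Mif4gd cover 11.9% of its exon bases. Without noninduced hearts 1 and 2 the value was 0.22.

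Mrps24, the counterpart of a bacterial protein at the entry of the messenger RNA channel, was at 36.6 to 41.8 CPM in noninduced hearts (median 38.4) and at 40.7 to 52.3 CPM in Parkin KO hearts (median 47.6). Its noninduced hearts lay close together, and 5 of the 6 Parkin KO hearts were above all of them. Parkin KO minus noninduced came to a log2 value of 0.27 (SE 0.0761, edgeR's Benjamini-Hochberg adjusted p = 0.417). Exons of Urgcp on the same strand cover 15.4% of its exon bases.

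Mrps26, found only in mitochondria, had the highest fold change of the members, with a log2 value of 0.44 (SE 0.136, edgeR's Benjamini-Hochberg adjusted p = 0.417). Noninduced hearts were at 18.4 to 32.7 CPM (median 25.0) and Parkin KO hearts at 28.1 to 38 CPM (median 34.7). Noninduced heart 4 reached into the Parkin KO range and noninduced heart 2 was the lowest of all. Without noninduced hearts 1 and 2 the log2 fold change was 0.28.

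Mrps14, near the decoding site in the head, had a log2 fold change of 0.41 with a wide interval, from 0.02 to 0.80. Its noninduced hearts ran from 5.95 to 13.6 CPM (median 9.68) and its Parkin KO hearts from 10.4 to 14.8 CPM (median 13.2). Hearts 1 and 2 were the lowest of the noninduced group, at 5.95 and 6.54 CPM, and hearts 5 and 6 overlapped the Parkin KO hearts. Without noninduced hearts 1 and 2 the log2 fold change of Mrps14 was 0.17. Mrps12, which forms part of the decoding centre, was at 24.5 to 32.7 CPM in noninduced and 30.1 to 36.9 CPM in Parkin KO hearts, with a log2 fold change of 0.19 (SE 0.0878, edgeR's Benjamini-Hochberg adjusted p = 0.438), and 0.09 without noninduced hearts 1 and 2.

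Several other small-subunit members had log2 fold changes near 0. Mrps22, found only in mitochondria, had a log2 fold change of -0.03 with an interval from -0.27 to 0.22, at 6.59 to 10.3 CPM in noninduced and 7.80 to 9.41 CPM in Parkin KO hearts. Mrps21 was at -0.04, Mrps18b at -0.06 and Mrps18c at 0.03 on the log2 scale. Mrps18c had the widest interval of these, from -0.41 to 0.46. Farther from 0, Mrps25 was at 0.25 with an interval from -0.13 to 0.62. It was at -0.01 in the fit with a term for sex, which left out noninduced heart 3.

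In the large subunit, 34 of 49 members (69.4%) were higher in Parkin KO hearts, beside 52% of all tested genes. The median log2 fold change of the 49 was 0.09. An unadjusted p under 0.05 was reached by 12 (24.5%), beside 11.4% of all tested genes. The 30 with a bacterial counterpart held 23 higher members and 10 with p under 0.05 (median 0.10). The 19 found only in mitochondria held 11 higher members and 2 with p under 0.05 (median 0.05). These counts include Mrps18a and Mrps30, which carry small-subunit symbols but sit in the large subunit. The difference between subunits was not tested.

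Mrpl2, the counterpart of a bacterial protein beside the peptidyl transferase centre, had the lowest p-value of any member and lies at chr17:46646229-46650139 on the plus strand. Noninduced hearts 1 to 6 were at 62.6, 58.3, 64.8, 67.3, 61.8 and 59.4 CPM, and Parkin KO hearts 1 to 6 at 66.5, 75.3, 89.8, 82.0, 69.1 and 76.1 CPM. The groups overlapped at 1 heart only, Parkin KO heart 1, which was below noninduced heart 4. The log2 fold change was 0.29 (SE 0.0810, edgeR's Benjamini-Hochberg adjusted p = 0.417).

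Mrpl18, whose bacterial counterpart binds 5S ribosomal RNA, was at 24.7 to 44.7 CPM in noninduced hearts (median 35.2) and at 40.1 to 51.9 CPM in Parkin KO hearts (median 49.8). Noninduced heart 2 was the lowest and noninduced hearts 4 and 5 reached the Parkin KO range. On the log2 scale the difference was 0.42 (SE 0.130, edgeR's Benjamini-Hochberg adjusted p = 0.417), and it was 0.26 without noninduced hearts 1 and 2. Exons of Tcp1 on the opposite strand cover 10.1% of its exon bases.

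The stalk and its base had fold changes of both signs. Mrpl11, at the base, was at 20.2 to 25.3 CPM in noninduced and 24.3 to 26.7 CPM in Parkin KO hearts, with a log2 fold change of 0.17 (SE 0.0787, edgeR's Benjamini-Hochberg adjusted p = 0.438), and 0.09 without noninduced hearts 1 and 2. Mrpl10, the anchor of the stalk, was at 105, 87.3, 79.1, 69.6, 59.6 and 66.0 CPM in noninduced hearts 1 to 6 and at 63.2 to 76.3 CPM in Parkin KO hearts, with a log2 fold change of -0.14 (interval -0.40 to 0.12). Mrpl12, the stalk protein itself, gave -0.07 (interval -0.29 to 0.16). Noninduced heart 1 was the highest of all 12 for both Mrpl10 and Mrpl12, at 105 and 276 CPM, and both had log2 fold changes above 0 without noninduced hearts 1 and 2 (0.03 and 0.05). Exons of noncoding genes on the opposite strand cover 14.1% of Mrpl10 and 13.1% of Mrpl12.

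Mrpl44 and Mrpl3 are the large-subunit members whose human counterparts were named above for cardiomyopathy. Mrpl44, which has a ribonuclease III-like fold, was at 37.0 to 39.9 CPM in noninduced and 38.7 to 44.9 CPM in Parkin KO hearts, among the narrowest ranges of the members. Its log2 fold change was 0.15 (SE 0.0661, edgeR's Benjamini-Hochberg adjusted p = 0.432). Mrpl3, which lies near the peptidyl transferase centre, had a log2 fold change of 0.17 with an interval from -0.16 to 0.50, and its hearts overlapped over most of their range (15.2 to 24.1 CPM and 17.6 to 27.2 CPM). Without noninduced hearts 1 and 2 the value of Mrpl3 was -0.0084.

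Mrpl17, a large-subunit protein near the exit tunnel, had a log2 fold change of 0.22 (interval 0.02 to 0.43), and 0.12 without noninduced hearts 1 and 2. Mrpl45, which helps to hold the exit of the tunnel at the inner membrane, was at 36.6 to 49.1 CPM and 38.4 to 45.6 CPM, a log2 fold change of 0.05 (interval -0.12 to 0.23). Mrps18a was at 0.17 (edgeR's Benjamini-Hochberg adjusted p = 0.438) and Mrps30 at 0.10 on the log2 scale, the latter at -0.02 without noninduced hearts 2 and 5. Mrpl1, Mrpl19, Mrpl24, Mrpl35 and Mrpl49 lay between -0.02 and 0.06, and Mrpl52 at -0.06 with an interval from -0.43 to 0.31. Exons of Rrnad1 cover 26.3% of the exon bases of Mrpl24. The other 10 members with an unadjusted p under 0.05 had log2 fold changes from 0.17 (Mrpl23) to 0.38 (Mrps34).

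In the edgeR fit of all 12 libraries with the group term alone, no member was lower in Parkin KO hearts at an unadjusted p under 0.05. When noninduced heart 5 was left out, Mrpl40, Mrps2 and Mrps36 were lower at that level. The same was found for Mrpl40 and Mrps36 without noninduced heart 6, and for Mrps2 without noninduced heart 4 or without Parkin KO heart 2. With all 12 libraries it was found for Mrps36 with the replicate number as a block, and for Mrpl40 in the FPKM table with no filter on low values. The 6 lower members of smallest p were Mrpl40, Mrps2, Mrps36, Mrpl10, Mrpl42 and Mrpl47. In Mrpl10, Mrpl42, Mrps36, Mrps2 and Mrpl40, noninduced hearts 1, 2 and 3 were the highest 3 of the noninduced group.

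Mrpl40, a large-subunit protein found only in mitochondria (chr16:18872018-18876862, minus strand), was at 38.4, 39.6, 32.4, 29.7, 25.1 and 26.6 CPM in noninduced hearts 1 to 6 and at 29.8, 27.6, 26.7, 25.6, 30.9 and 21.0 CPM in Parkin KO hearts 1 to 6. Hearts 1 to 3 of the noninduced group were above every Parkin KO heart, while its hearts 4 to 6 fell among them. The log2 fold change was -0.24 (SE 0.127, edgeR's Benjamini-Hochberg adjusted p = 0.451), and -0.09 without noninduced hearts 1 and 2.

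Mrps2, a small-subunit protein with a bacterial counterpart (chr2:28468066-28471178, plus strand), had the most negative fold change of the members. Noninduced hearts 1 to 6 were at 75.3, 57.8, 60.5, 42.0, 40.2 and 46.7 CPM, and Parkin KO hearts at 37.3 to 55.5 CPM with a median of 42.4. Noninduced heart 1 was the highest, and Parkin KO hearts overlapped noninduced hearts 4 to 6. Its fitted log2 difference was -0.29 (SE 0.152, edgeR's Benjamini-Hochberg adjusted p = 0.451), and -0.10 without noninduced hearts 1 and 3.

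Mrps36 was at 150, 153, 139, 107, 89.4 and 83.6 CPM in noninduced hearts 1 to 6 and at 81.1 to 125 CPM in Parkin KO hearts (median 98.8). The first 3 noninduced hearts were again the highest of all 12. The log2 fold change was -0.26 (SE 0.158, edgeR's Benjamini-Hochberg adjusted p = 0.507), and -0.07 without noninduced hearts 1 and 2.

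Mrpl42 alone held 8.89% of the members' summed CPM. Noninduced hearts 1 to 6 were at 525, 330, 379, 265, 236 and 220 CPM and Parkin KO hearts 1 to 6 at 254, 384, 303, 244, 288 and 220 CPM. Noninduced heart 1 was the highest and the other hearts overlapped. Parkin KO minus noninduced came to a log2 value of -0.21 (interval -0.63 to 0.21), and 0.09 without noninduced hearts 1 and 3. Mrpl47, the counterpart of a bacterial protein at the tunnel exit, was at -0.11 (interval -0.38 to 0.16), with exons of Ndufb5 and Actl6a covering 24.2% of its exon bases.

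**Figure D4:**
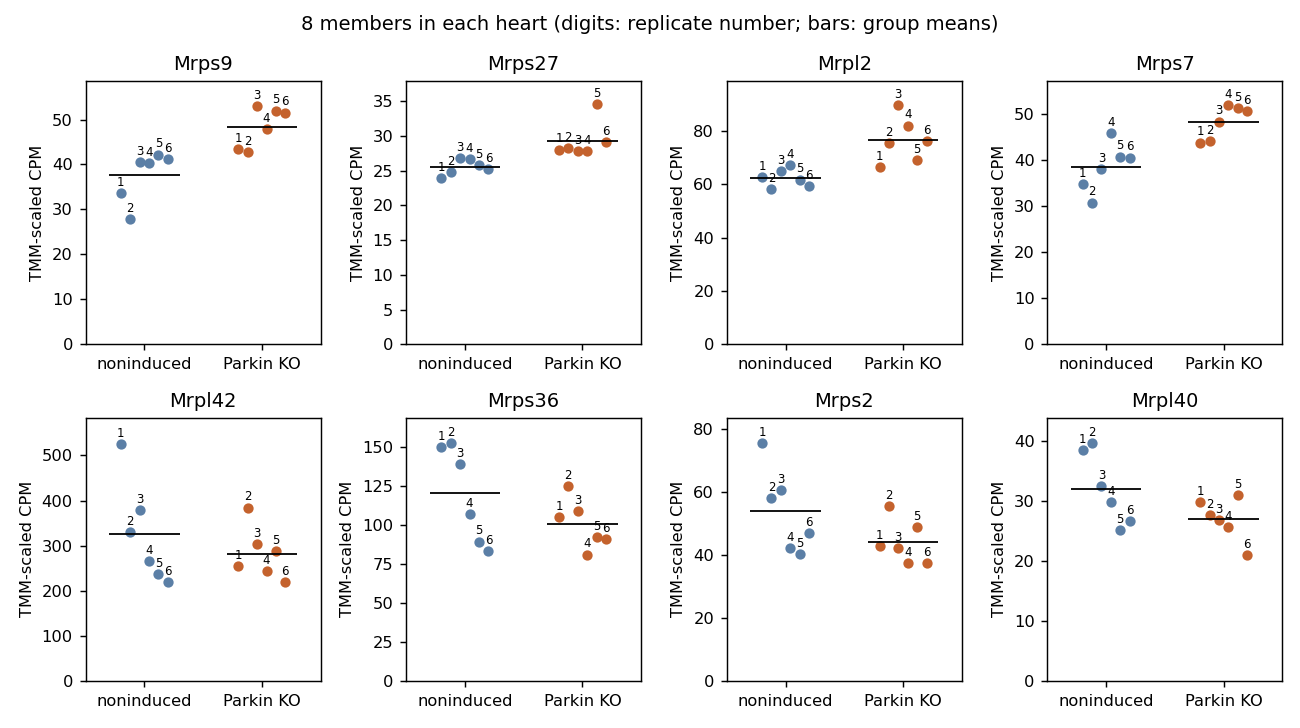
CPM scaled by TMM of 8 members in each heart, with replicate numbers beside the points and bars at group means. In the upper row (Mrps9, Mrps27, Mrpl2, Mrps7) Parkin KO hearts sit mostly or wholly above the noninduced hearts, and in the lower row (Mrpl42, Mrps36, Mrps2, Mrpl40) noninduced hearts 1 to 3 stand above hearts 4 to 6.

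The members' pattern also differed from library to library within the noninduced group. Of the 76 members, 23, 16, 39, 42, 22 and 21 were above their own mean over all hearts in noninduced hearts 1 to 6, and 39, 53, 48, 48, 60 and 55 in Parkin KO hearts 1 to 6. The counts of noninduced hearts 3 and 4 were thus at or above that of Parkin KO heart 1. Noninduced heart 2 held the lowest value of 25 members and noninduced heart 1 that of 14. Noninduced heart 1 also held the highest value of 10 members, Mrpl4, Mrpl10, Mrpl12, Mrpl37, Mrpl38, Mrpl42, Mrpl49, Mrpl54, Mrpl55 and Mrps2. Noninduced heart 6, with 21 members above their mean, had the lowest cardiomyocyte marker sum (61657 CPM). However, Parkin KO heart 5, with 60 members, had the lowest sum of its group (79723 CPM), and noninduced heart 2, with 16, was at 77147 CPM. A relation between the marker sum and the members was not tested.

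Members took 0.331 ± 0.0212% of all counts in noninduced and 0.352 ± 0.0107% in Parkin KO hearts (SD, n = 6 each). After removal of mitochondrial DNA-encoded genes, whose share was highest in noninduced hearts 1 and 2, the shares were 0.372 ± 0.0138% and 0.381 ± 0.0127% (SD, n = 6 each), a difference smaller than the SD of either group. The ratio of summed large-subunit to small-subunit CPM was 2.88 ± 0.294 in noninduced and 2.68 ± 0.117 in Parkin KO hearts (SD, n = 6 each), and it was highest in noninduced heart 1 at 3.32. The part of the mitochondrial share in the members' fold changes was not tested.

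**Figure D5:**
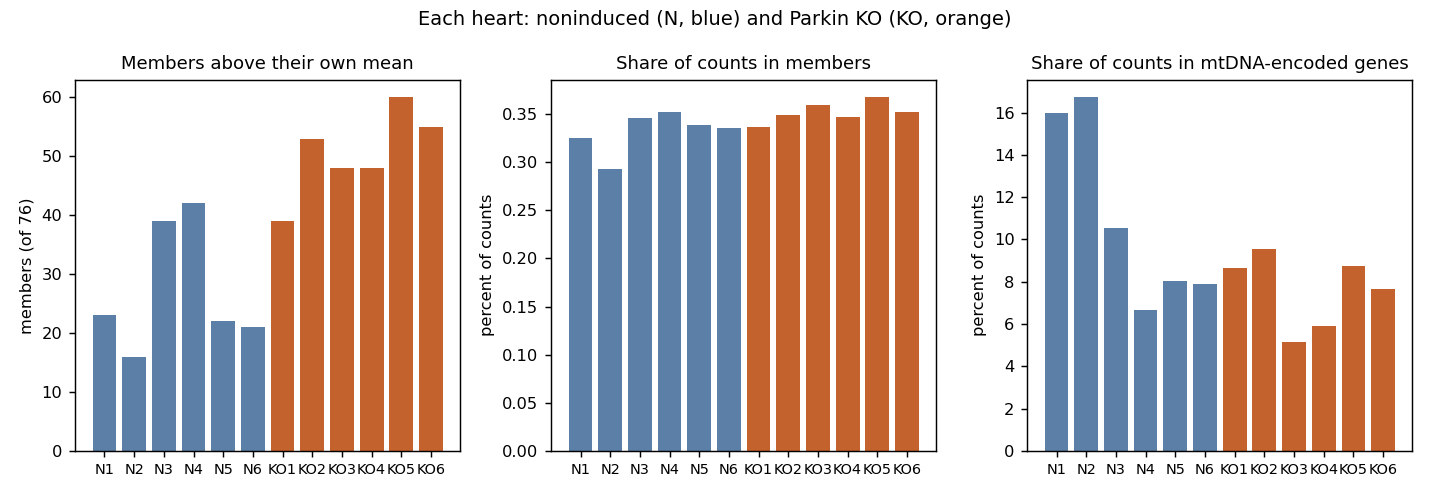
For each heart, the number of 76 members above their own mean over all hearts (left), the percent of counts in members (middle) and the percent of counts in mitochondrial DNA-encoded genes (right), with noninduced hearts in blue and Parkin KO hearts in orange. Noninduced hearts 1 and 2 have the highest mitochondrial shares (16.0% and 16.7%), and noninduced heart 2 has the fewest members above their mean (16).

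Other genes of the same machinery were read from lists chosen with earlier results of these data known. None of their genes passed an adjusted p under 0.05. Over all tested genes, 52% were higher in Parkin KO hearts. At an unadjusted p under 0.05, 5.82% were higher and 5.54% lower. Of 8 further genes of the mitochondrial ribosome with other symbols, among them the membrane insertase Oxa1l that docks to it, 8 were higher in Parkin KO hearts (median log2 fold change 0.12) and 3 had an unadjusted p under 0.05. Mrp63, listed today as Mrpl57, was at 0.45 and Gadd45gip1, a large-subunit protein, at 0.30 on the log2 scale. Aurkaip1, of the small subunit, was at 0.19.

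Of 27 assembly factors, 25 were higher (median 0.12, 7 with p under 0.05), with Trub2, a pseudouridine synthase, at 0.35 and Wbscr16, an exchange factor for an assembly GTPase, at 0.40. Of 16 translation factors, 16 were higher (median 0.13, 4 with p under 0.05), including Tsfm, the exchange factor for the elongation factor Tufm, at 0.39 and Lrpprc, which stabilizes mitochondrial messages, at 0.41. Of 22 genes for charging mitochondrial tRNAs, which are aminoacyl-tRNA synthetases and the amidotransferase subunits Qrsl1, Pet112 and Gatc, 17 were higher (median 0.12, 4 with p under 0.05), with Yars2 at 0.41 and Cars2 at 0.30. The shares with p under 0.05 in these lists were 25.9%, 25% and 18.2% in turn, beside 11.4% of all tested genes.

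In the fit of all 12 libraries, the partners transcribed from mitochondrial DNA had the opposite sign. The ribosomal RNAs mt-Rnr1 and mt-Rnr2 had log2 fold changes of -0.38 (interval -0.96 to 0.19) and -0.46 (interval -1.13 to 0.21), read in libraries selected for poly(A). In noninduced hearts 1 to 6, mt-Rnr1 was at 811, 1392, 620, 413, 430 and 460 CPM, and mt-Rnr2 at 7657, 12501, 4835, 3280, 3195 and 3810 CPM. Parkin KO hearts ran from 390 to 715 CPM and from 3255 to 5987 CPM. All 13 mitochondrial DNA-encoded messages were lower in Parkin KO hearts. Their median was -0.66, and 8 had an unadjusted p under 0.05, where 5.54% of all tested genes were lower at that level. Of the 8, mt-Atp8 and mt-Cytb had the smallest p. These are the transcripts whose share stood apart in noninduced hearts 1 and 2. Fold changes of these genes without those 2 hearts are not given here, and how far the sign rests on them was not tested.

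On the genome the members were spread over 17 chromosomes, with 10 on chromosome 11. A protein-coding gene started on the opposite strand within 1000 bases upstream for 17 members (22.4%), against 6.79% of 21951 protein-coding genes. Such pairs included Mrps12 with Sars2, the mitochondrial seryl-tRNA synthetase, 172 bases apart, and Mrps27 with Ptcd2, a mitochondrial RNA-binding protein, 81 bases apart. Of 16 partners that were tested, 13 were higher in Parkin KO hearts, 9 had the same sign as their member, and 1 had an unadjusted p under 0.05 (Apba3, beside Mrpl54). Among all tested genes, 52% were higher and 11.4% had an unadjusted p under 0.05.

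Overlap with other genes touched 18 members, in which exons of another gene covered over 10% of the exon bases. Mrps34 was the most affected of the members with p under 0.05, with 63.4% covered by Mapk8ip3 on the opposite strand and 37.0% by Nme3 on the same strand. With these 18 left out, 40 of 58 members were higher, the median log2 fold change was 0.10 and 16 had an unadjusted p under 0.05. Among members with a promoter window, the ETS motif was present in 9 of 20 with p under 0.05 (45%) and in 14 of 47 others (29.8%), and the YY1 motif in 5 of 20 (25%) and 7 of 47 (14.9%), shares that were not tested against each other.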

How the data were processed

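Messenger RNA was measured in 12 libraries, grouped by the labels. The control columns of the deposited tables carry a wild-type abbreviation and were matched to the noninduced hearts by number. Gene counts were deposited by the authors as whole reads per gene symbol, and FPKM values were deposited in a second table. The submitters' processing notes list TopHat2 2.0.10, Bowtie2, HTSeq and Cufflinks 2.1, and mm10 as the build. How multiply mapped reads were counted, and on which gene models, is not given in the sources used here, so reads of near-identical copies are uncertain. Of the rows, 37 carry Ensembl identifiers, all matched to symbols.

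Counts were tested in R 4.3.3 with edgeR 4.0.16 (TMM, filterByExpr, quasi-likelihood F test, two-sided, group term alone), with Benjamini-Hochberg adjustment over 13050 genes. Standard errors and 95% intervals were derived from the F statistic and are approximate. The code was tested on simulated data. Alternatives used limma 3.58.1 and DESeq2 1.42.0. FPKM tests used log2(FPKM + 0.1), leaving out 4 genes listed at 0 despite over 1000 counts. One count was worth 0.0548 to 0.0948 CPM.

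Members and lists were chosen with earlier results of these data known. Members are named for the 6 smallest p in each direction, the 5 highest and 5 lowest levels, the 3 largest and 3 smallest spreads, groups that do not overlap, the Mrps18 paralogs and a few of known role. Others were named beside these after their values were seen. Positions are from GENCODE vM21 on GRCm38, the assembly mm10 names, and promoters from RefSeq. Mrpl57 and Mrpl58 stand in the table as Mrp63 and Ict1, outside the rule. The targeted gene is not reported here.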

Additional observations from a re-analysis of the deposited data

Results flagged for a closer look

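Among 72 groups of 6 libraries examined, 3 held a value whose gap to its neighbour took an unusually large part of the group's range, a mark that about 1 in 20 groups reach by chance. Mrpl45 was at 49.1 CPM in noninduced heart 4, where the other noninduced hearts were at 36.6 to 41.2 CPM. Mrps25 was at 33.0 CPM in Parkin KO heart 6, against 15.5 to 20.8 CPM in the others of that group. Mrps27 was at 34.6 CPM in Parkin KO heart 5, against 27.8 to 29.1 CPM in the others.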

How the results depend on the processing

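Over 25 alternatives, no member passed an adjusted p under 0.05 in any, the median log2 fold change of members stayed between 0.06 and 0.14, and 49 to 61 members were higher. The values of 61 and 0.14 came from FPKM fits, where 54.4% to 57.8% of all genes were higher, with medians of 0.02 to 0.04. The value of 49 came from the fit without noninduced heart 2, where 47.3% of all genes were higher. DESeq2 called 10 of all genes, none of them members, with 19 members at an unadjusted p under 0.05. The number of members at that level ran from 8 to 23. Leaving out 1 heart at a time gave 11 to 23. It was 11 without noninduced hearts 1 and 3 and 10 without noninduced hearts 2 and 5, beside 7.49% and 7.17% of all genes. It was 8 in the libraries without Y-linked reads and 10 with a term for sex, beside 4.71% and 5.99%. With all libraries the share of all genes was 11.4%. The fit with a term for sex left out noninduced heart 3, so only Parkin KO hearts then held Y-linked reads. Its group difference thus rested on the libraries without Y-linked reads, and it is not a separate check. The log2 fold change of Mrpl52 was 0.16 in both fits, and that of Mrps25 was -0.0050 and -0.0045. The number of members was 8 without noninduced hearts 1 and 2 (4.77% of all genes), an alternative chosen after seeing the data. The cause was not tested. With the replicate number as a block, it was 23, of which 22 were higher and 1, Mrps36, lower, the median was 0.11 and 54 members were higher, but numbers did not pair the libraries: same-number correlations ran from -0.11 to 0.18, and 1 library of each group correlated best with its own number. The median level was 22.6 as CPM per kilobase of exon, against 37.2 FPKM. Of 34 named members, 15 turned sign under some alternative (Mrpl1, Mrpl3, Mrpl10, Mrpl12, Mrpl19, Mrpl24, Mrpl35, Mrpl42, Mrpl49, Mrpl52, Mrps18c, Mrps21, Mrps22, Mrps25 and Mrps30), none from a value past the adjusted threshold, and 19 did not. The 95% intervals lay within a 2-fold change for all 76 members and within 1.5-fold for 65. Of the 13050 tested genes, 12180 and 9265 did so.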
